A study of Xenopus laevis with 8 samples.

Results

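The genes described here belong to the Notch pathway and to the Hes and Hey family of repressors. They were measured in head and tail fragments of Xenopus laevis (African clawed frog) embryos. A probe set, the group of short probes that reports 1 transcript on an Affymetrix array, was taken where its annotated symbol matched a fixed pattern of names such as notch, dll, jag, hes, hey, rbpj and tle. The pattern found 60 of the 15491 probe sets that are not controls. Of these, 3 carry the symbol esr1, which the gene table lists as an estrogen receptor gene and which matched by its letters alone. They are left out of the counts below, and the remaining 57 probe sets stand for 34 genes, with the L and S copies of a gene counted as 1. Both copies exist for many genes of this species, whose genome was doubled, and a probe set designed on 1 copy can also bind the other. Of the 57, 29 probe sets of 22 genes were bright enough to be tested in the main comparison, and 28 lay under a filter that left out the dimmest 40% of probe sets by mean log2 signal.

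The head group held RNA of the front part and the tail group RNA of the back part of embryos cut across at stage 18, towards the end of neurulation. Each group had 4 arrays: replicates 1 to 3 came from single embryos and replicate 4 from a pool. The embryos were untreated, and no allele or transgene is named. The labels give no clutch and no pool size, and do not tie a head to the tail that shares its number. The p-values therefore set the head-to-tail difference only against the spread of these arrays. That spread mixes single embryos with a pool and may be partly technical.

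As background, Notch is a receptor that is activated by ligands of the Delta and Serrate (Jagged) type on a neighbouring cell. Proteases then release its intracellular part, which joins the DNA-binding protein RBPJ and switches on target genes, above all those of the Hes and Hey repressors. In the neurula the pathway limits how many cells of the neural plate become neurons, and in the presomitic mesoderm at the back of the embryo it takes part in cutting the mesoderm into segments. It also sets the spacing of ciliated cells in the skin.

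Median signals lay between 327 and 390 intensity units over the 8 arrays, whose small number sets the precision. Head markers, with all 10 listed genes present on 25 probe sets, summed to 106009 to 152112 units in heads and 10117 to 17107 units in tails. Tail markers, with 9 of 10 listed genes on 9 probe sets, summed to 1163 to 2584 units in heads and 9385 to 13131 units in tails. In a limma fit without the filter, 8 of these were called higher in tails. The exception was hoxb9, whose groups overlapped with a head-minus-tail log2 difference of -0.01. In the same fit all 25 head probe sets had positive differences. Of them 13 were called higher in heads, against 1.27% of all probe sets, and 12 were not called. By these sums the fragments matched their labels. The lists were chosen with earlier results of these data known, and the brightest probe sets, such as those of ag1, carry much of the head sum. This is therefore a check on the labels and not a separate result. Of the 25 head probe sets, 7 had head means under the 20th percentile of all signals, 93.3 units. Both S-copy probe sets of the eye gene rax were among them. Replicate 1 stood apart in both groups: limma's array weights were 0.546 for head replicate 1 and 0.387 for tail replicate 1, against 0.822 to 3.18 for the other 6 arrays. Muscle markers, 5 of 8 listed genes on 9 probe sets, summed to 7635 units in head replicate 1 against 10734 to 13313 in the other heads, and to 21815 units in tail replicate 1 against 11322 to 14697 in the other tails. The part of these differences in the results was not tested. Some of the results that lean on these arrays, but not all, are also given without them. In such fragments, fewer cells of a type and less RNA per cell cannot be told apart.

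The comparison asked which pathway genes differ between the front and the back of the embryo. Most members did not pass the test. The Delta ligand gene dlc.L and the Hes-family gene esr-5.L did, and 4 further probe sets of Hes genes passed only in a fit without the filter. Of the 29 tested probe sets, 0 were higher in heads and 2 higher in tails at an adjusted p of 0.05 (limma with Benjamini-Hochberg adjustment over all 9295 tested probe sets). Over all tested probe sets 2.00% were called higher in heads and 2.61% higher in tails, 4.62% in either direction. At an unadjusted p under 0.05, limma gave 6 members higher in heads and 4 higher in tails, against 8.84% and 8.61% of all tested probe sets (17.5% together). The 4 were dlc.L, esr-5.L, hes5.6.L and hes5.10.L. Head means of the last 3 lay under the filter level, a mean log2 signal of 7.86. Their tails thus brought them into the test and into these counts. The median head-minus-tail difference on the log2 scale was 0.15 over the tested members and 0.06 over all tested probe sets. With no filter, all 57 members were tested, and 3 were called higher in heads and 3 higher in tails, against backgrounds of 1.27% and 1.66% (2.93% in either direction). Of those higher in heads, hes2.L and 1 hes7.1.L probe set had head means over the filter level. Low tails had kept them out of the main test. At an unadjusted p under 0.05 the unfiltered fit gave 12 members higher in heads and 6 higher in tails, against 7.60% and 6.71% of all probe sets (14.3% together). Of the 6 probe sets called in the unfiltered fit, 5 belong to the Hes and Hey family, and the other is that of the ligand gene dlc.L. The plot of differences by role gives every member.

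**Figure D1:**
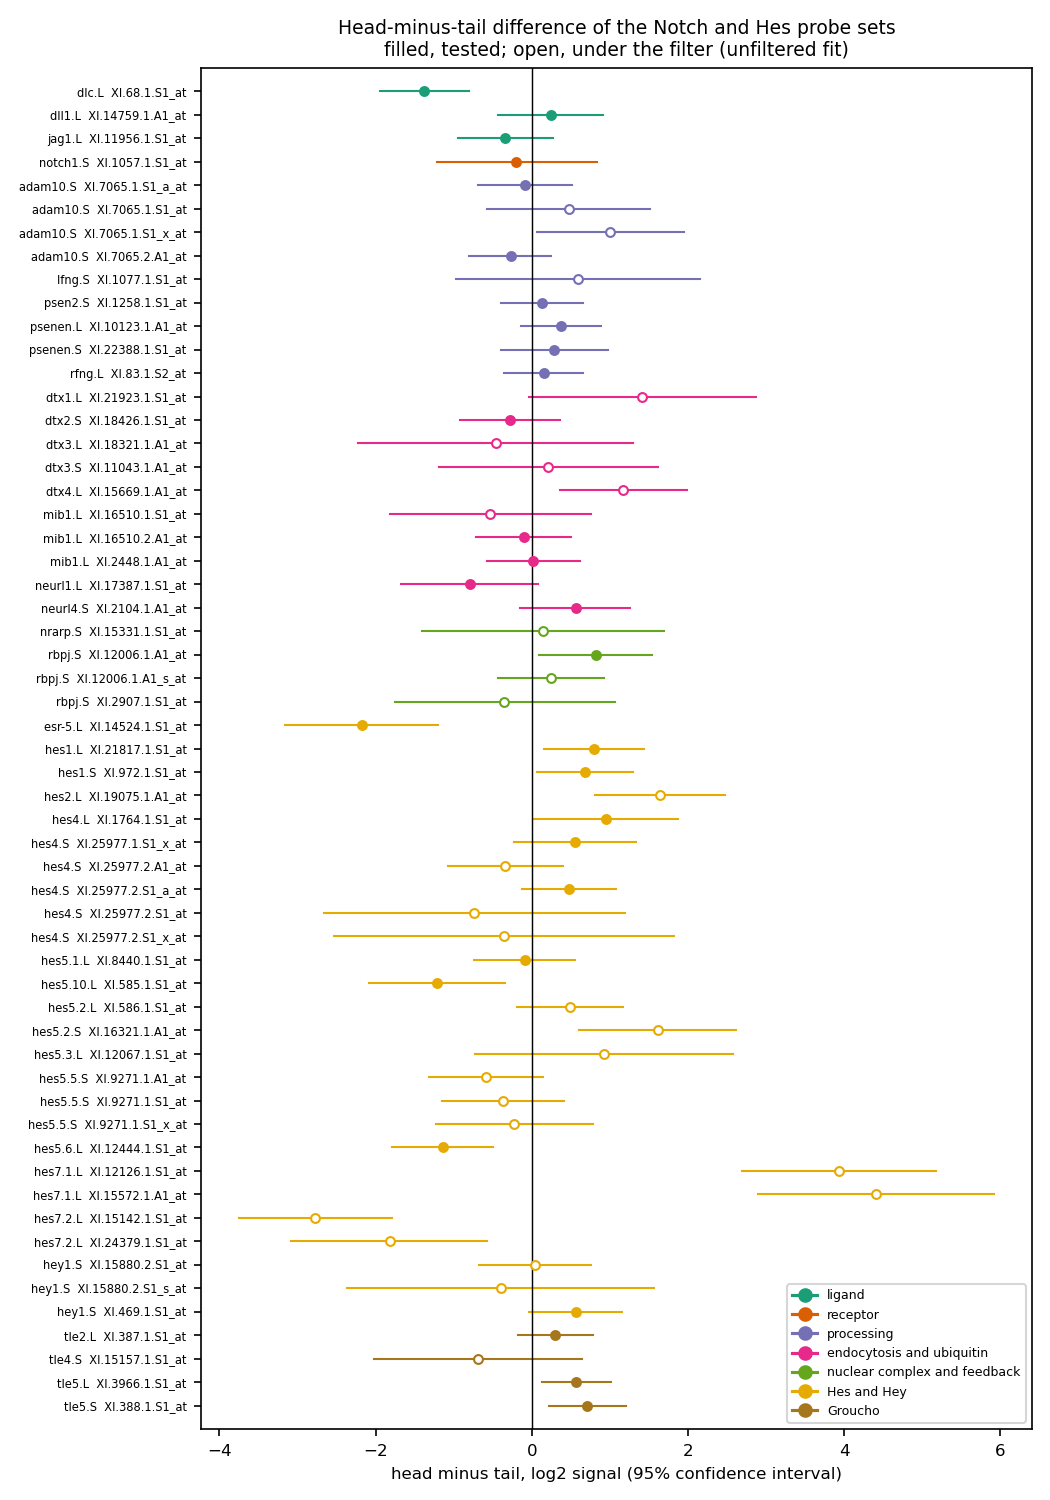
Head-minus-tail difference in log2 signal of the 57 Notch and Hes probe sets, 1 row each, ordered and coloured by role. Points are fitted differences and lines 95% confidence intervals from limma (4 head and 4 tail arrays); filled points passed the filter, and open points, under the filter, come from the unfiltered fit. The differences run from -2.77 for a hes7.2.L probe set to 4.41 for a hes7.1.L probe set.

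Among the ligands, the Delta gene dlc.L was the member with the lowest adjusted p of those tested. This gene, also listed as X-Delta-2, encodes a Delta-type ligand known in Xenopus from the segmenting mesoderm. Its signal was 167, 301, 318 and 312 units in heads and 644, 682, 650 and 798 units in tails. Every tail lay above every head, and head replicate 1 was the lowest array. Heads had a mean log2 signal of 8.05 ± 0.45, against 9.43 ± 0.14 for tails (SD, n = 4 each), a 2.60-fold higher level in tails (log2 difference -1.38, 95% interval -1.95 to -0.81; limma adjusted p = 0.0106). Without head replicate 1 the difference was -1.16 (limma adjusted p = 0.0112), and the call was lost only in the 6 single-embryo arrays, among the alternatives run (-1.39, limma adjusted p = 0.0555).

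The other ligands did not pass. The Delta gene dll1.L, whose protein singles out neuronal precursors in the neural plate, had 588, 871, 1206 and 849 units in heads and 429, 764, 788 and 1048 units in tails. Its groups overlapped, and the log2 difference was 0.24 with a 95% interval from -0.43 to 0.91 (limma adjusted p = 0.759). The Serrate-type ligand gene jag1.L had 337, 247, 510 and 486 units in heads and 407, 442, 488 and 610 units in tails, a difference of -0.34 (95% interval -0.95 to 0.27). Without head replicate 2, its lowest array, the difference was -0.14. Whether dlc.L differs from these genes in its head-to-tail ratio was not tested.

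Notch receptors were represented by notch1.S alone. It had 219, 250, 172 and 500 units in heads and 119, 377, 312 and 583 units in tails. The pool was the highest array of each fragment, and the heads and tails overlapped (log2 difference -0.20, 95% interval -1.22 to 0.83; limma adjusted p = 0.878). These arrays cannot tell between the differences within that interval.

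Genes for processing the receptor showed no call. Of 9 probe sets of 5 genes, 6 were tested, with log2 differences from -0.27 to 0.37 and a lowest limma adjusted p of 0.471. The protease gene adam10.S, which makes the first cut after ligand binding, had 3738, 3020, 3480 and 2424 units in heads and 5431, 3756, 3512 and 2845 units in tails on its brightest probe set. These ranges overlapped, and the difference was -0.27 (95% interval -0.80 to 0.25). The gamma-secretase complex makes the second cut. Its subunit gene psenen was measured for both copies, and psenen.L had 2989, 2898, 2775 and 2521 units in heads and 2486, 2937, 1973 and 1516 units in tails. The differences were 0.37 for psenen.L and 0.29 for psenen.S, and psen2.S, the gene of a catalytic subunit, had 0.13. Fringe enzymes add sugars to Notch and change its response to ligands: rfng.L had a difference of 0.15 (95% interval -0.35 to 0.66), while lfng.S lay under the filter, with 71.8 to 211 units in heads and 15.6 to 198 units in tails.

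Regulators of ligand and receptor turnover gave no call either. Of 10 probe sets of 7 genes, 5 were tested, with log2 differences from -0.79 to 0.56 (lowest limma adjusted p 0.340). The ubiquitin ligase gene mib1.L, whose product acts on Delta in the signalling cell, had 1337, 854, 883 and 1061 units in heads and 831, 865, 1124 and 1766 units in tails on the first of its tested probe sets. The second tested mib1.L probe set had 677, 1055, 983 and 1314 units in heads and 813, 701, 1168 and 1308 units in tails. The groups overlapped on both, with differences of -0.10 and 0.02, and 95% intervals of -0.71 to 0.50 and -0.58 to 0.62. The neuralized gene neurl1.L had a difference of -0.79 (95% interval -1.67 to 0.08), with 114 to 530 units in heads and 384 to 598 units in tails. Head replicate 2 was the lowest array, and without it the difference was -0.37. Deltex genes encode cytoplasmic Notch-binding ubiquitin ligases. On dtx4.L, under the filter, every head lay above every tail (155, 346, 253 and 315 units in heads; 152, 80.5, 93.8 and 144 units in tails), and the unfiltered difference of 1.17 had a limma adjusted p of 0.148. Head replicate 1 and tail replicate 1 were nearly level on that probe set.

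In the nucleus, the DNA-binding gene rbpj.S was measured by 3 probe sets. The 1 that was tested had 1347, 1895, 1114 and 1801 units in heads and 674, 507, 1046 and 1491 units in tails. Tails were lower on average, but the pooled tail lay among the heads, and the difference of 0.82 did not pass (95% interval 0.09 to 1.54; limma adjusted p = 0.219). The other rbpj.S probe sets, under the filter, had unfiltered differences of 0.25 and -0.35. The feedback inhibitor gene nrarp.S, itself a Notch target, also lay under the filter, with 23.5 to 159 units in heads and 22.6 to 144 units in tails.

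The Hes and Hey genes encode basic helix-loop-helix repressors, and they held 26 of the 57 probe sets, for 13 genes. Of the 26, 16 (61.5%) lay under the filter, against 49.1% over all members. In the main comparison 1 of 10 tested was called, against 4.62% of all tested probe sets. This was the gene esr-5.L. Its name is short for a gene related to the Enhancer of split genes of Drosophila. It had 42.3, 117, 167 and 204 units in heads and 357, 703, 462 and 616 units in tails. All tails lay above all heads, and head replicate 1 was the lowest array. Heads had a mean log2 signal of 6.83 ± 1.01, against 9.01 ± 0.44 for tails (SD, n = 4 each), so that tails were 4.53-fold higher (log2 difference -2.18, 95% interval -3.16 to -1.20; limma adjusted p = 0.0175). With low signals raised to the 20th percentile the fold was 3.72. Without both first replicates, a setting chosen after seeing the data, the difference was -1.88 (limma adjusted p = 0.00459). The limma adjusted p was 0.0509 without head replicate 2, 0.0625 without tail replicate 2 and 0.0526 without tail replicate 3. The head mean of esr-5.L lay under the filter level of 7.86, so its tails brought it into the main test. With no filter it also passed (limma adjusted p = 0.0257).

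The largest difference of all members was that of hes7.1.L, and it was higher in heads. This gene, also listed as XHR1, is known in Xenopus from the prospective midbrain-hindbrain boundary. Its mean log2 signals over all arrays lay under the filter, with tail values near the bottom of the scale. On the first of its probe sets it had 663, 307, 309 and 354 units in heads and 16.3, 87.7, 19.0 and 15.0 units in tails. On the second it had 478, 202, 51.4 and 152 units in heads and 4.18, 14.2, 7.75 and 8.13 units in tails. Neither probe set had any overlap, and head replicate 1 was the highest array on both. On the first, the head mean log2 signal of 8.59 lay over the filter level of 7.86. Its low tails (mean 4.66) kept that probe set out of the main test. In the unfiltered fit the log2 differences were 3.93 (95% interval 2.69 to 5.18; limma adjusted p = 0.00233) and 4.41 (2.89 to 5.92; limma adjusted p = 0.00401). All 4 tails lay under the 20th percentile of all signals on both probe sets, so the folds are lower limits. With each array raised to that level, heads were at least 4.14-fold and at least 2.06-fold higher. With this floor in the fit, the first passed (difference 2.05, limma adjusted p = 0.0113) and the second did not (1.04, limma adjusted p = 0.382). Without head replicate 1 the difference on the first probe set was 3.67 (limma adjusted p = 0.00882), and without tail replicate 2, its highest tail, it was 4.53 (limma adjusted p = 0.00037). On the second probe set, the fits without 1 array gave 3.90 to 4.97 (highest limma adjusted p 0.02).

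A second gene of the same name group, hes7.2.L, differed in the other direction. On the first of its probe sets it had 37.3, 36.5, 19.1 and 31.5 units in heads and 148, 257, 340 and 139 units in tails. Every tail lay above every head, and the unfiltered log2 difference was -2.77 (95% interval -3.75 to -1.79; limma adjusted p = 0.00494). All 4 heads lay under the 20th percentile. With signals raised to that floor the difference was -1.14 and no longer passed (limma adjusted p = 0.121). A second hes7.2.L probe set had 79.8, 25.2, 18.2 and 102 units in heads and 164, 194, 184 and 99.5 units in tails. There the pooled tail lay just under the pooled head, and the difference of -1.82 did not pass (limma adjusted p = 0.143).

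The other Hes gene called higher in heads, again in the unfiltered fit, was hes2.L. It had 231, 336, 292 and 286 units in heads and 158, 64.6, 112 and 60.6 units in tails, with no overlap. Its head mean log2 signal of 8.15 lay over the filter level, and its tails (mean 6.51) kept it out of the main test. The unfiltered difference was 1.64 (95% interval 0.81 to 2.47; limma adjusted p = 0.040). Against the 20th percentile, the level in heads was at least 2.55-fold that in tails. This call was weak: the adjusted p was over the threshold without head replicate 1 (0.0522), 2 (0.131), 3 (0.113) or 4 (0.103) and without tail replicate 2 (0.100), 3 (0.0855) or 4 (0.0961), but not without tail replicate 1. It was also lost with median centring (0.0607), with quantile normalization (0.0653), with eBayes without a trend (0.0526), with the replicate block (0.0588) and in the single-embryo arrays (0.207). These are 12 of the 18 alternatives run.

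**Figure D2:**
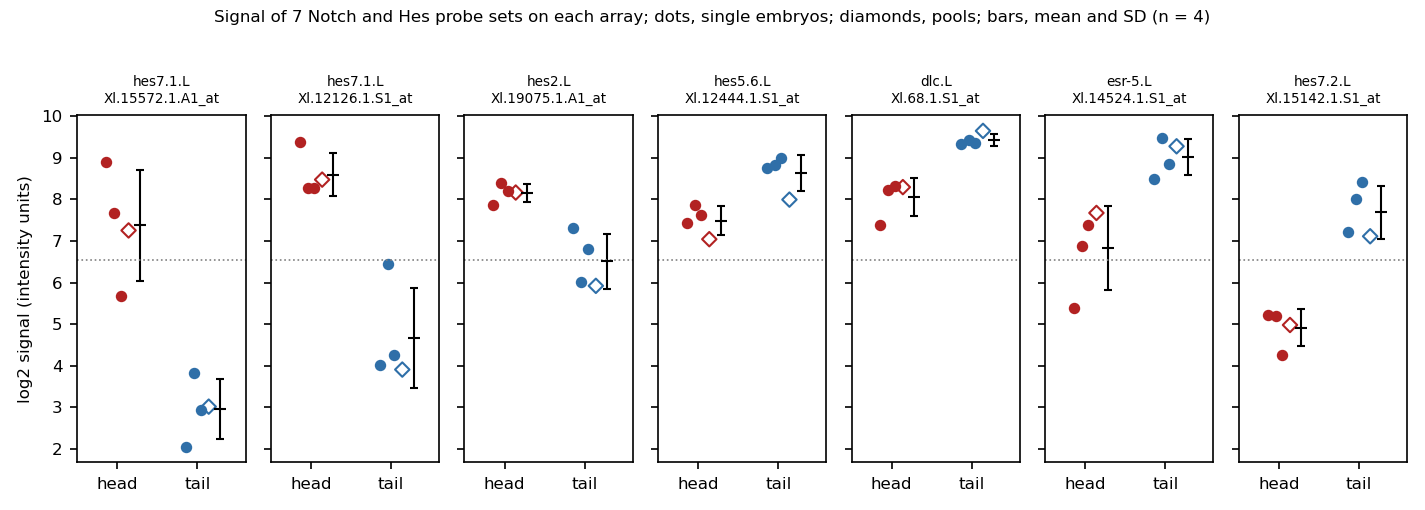
Log2 signal on each head and tail array for 7 probe sets: the 6 called in the main or the unfiltered fit and hes5.6.L. The far left panel is the second hes7.1.L probe set of the text. Dots are single embryos, diamonds pools, and bars the mean and SD (n = 4); the dotted line is the 20th percentile of all signals, log2 6.54. Heads and tails do not overlap on any of the 7, and the tail arrays of both hes7.1.L probe sets lie under the dotted line.

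The hes5 genes of this species form a large family, of which 6 were on the array with 9 probe sets. Over all 9, the unfiltered limma fit gave 3 positive and 6 negative differences. At an unadjusted p under 0.05 it gave 1 higher in heads and 2 in tails, against 7.60% and 6.71% of all probe sets. The 3 that were tested in the main comparison all had negative differences, and 0 passed (limma). At an unadjusted p under 0.05, 0 of them were higher in heads and 2 in tails, against 8.84% and 8.61% of all tested probe sets. The head means of these 2 lay under the filter level, so their tails brought them into the test. One was hes5.6.L, also listed as esr9 and known from the presomitic mesoderm of Xenopus. It had 171, 234, 197 and 132 units in heads and 430, 449, 504 and 254 units in tails. All tails exceeded all heads, the pooled arrays being the lowest of their groups, and the difference was -1.14 (95% interval -1.79 to -0.50; limma adjusted p = 0.0501). It passed without tail replicate 4, the pool (-1.36, limma adjusted p = 0.0277), but not without any other array (limma adjusted p 0.0733 to 0.178). It also did not pass in the single-embryo arrays (0.0794) or with no filter (0.0888). In all, 9 of 19 alternatives passed.

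The other was hes5.10.L, listed as esr6e and known from the epidermis of Xenopus. It had 292, 203, 67.5 and 152 units in heads and 322, 314, 381 and 462 units in tails. The groups did not overlap, though head replicate 1 came close to the tails, and the difference was -1.22 (95% interval -2.09 to -0.34; limma adjusted p = 0.128). Without head replicate 1 it was -1.52 and passed (limma adjusted p = 0.0459). Only 3 of 19 alternatives passed, the others being array weights and leaving out both first replicates, and the highest limma adjusted p was 0.364. The head mean log2 signals of hes5.10.L (7.29) and hes5.6.L (7.49) lay under the filter level of 7.86, so their tails brought both into the test. By contrast, hes5.1.L, listed as esr-1 and known as a Notch target in the neural plate, had 875, 820, 682 and 496 units in heads and 634, 544, 1271 and 718 units in tails. Its groups overlapped, with a difference of -0.09 (95% interval -0.74 to 0.55; limma adjusted p = 0.910).

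Under the filter, hes5.2 (listed as esr7) had heads above tails on its probe sets for both copies. The S copy had 241, 273, 216 and 297 units in heads and 117, 30.5, 99.9 and 137 units in tails, and the L copy 201, 174, 185 and 211 units in heads and 169, 145, 134 and 107 units in tails. Neither copy passed the unfiltered test (differences 1.61 and 0.49, limma adjusted p = 0.102 and 0.537). The 3 probe sets of hes5.5.S and that of hes5.3.L gave unfiltered differences from -0.59 to 0.92, none of them past the threshold.

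The hairy-type genes hes1 and hes4 had positive differences on their tested probe sets, and 0 passed in limma. For hes1 both copies were tested. The L copy had 993, 860, 931 and 1476 units in heads and 370, 707, 548 and 904 units in tails, and the S copy 1242, 846, 973 and 1162 units in heads and 370, 802, 750 and 808 units in tails. Tail replicate 1 was the lowest array for both copies. The differences were 0.79 and 0.68 (limma adjusted p = 0.180 and 0.232), and without both first replicates the S copy had 0.33. The gene hes4, or hairy2, known from neural crest and midline cells of Xenopus, had 1732, 1746, 1188 and 2359 units in heads and 485, 492, 1487 and 1737 units in tails on its L probe set. Tail replicates 1 and 2 were low there, the others lay within the heads, and the difference of 0.95 did not pass (limma adjusted p = 0.272). Of 5 hes4.S probe sets, 2 were tested, with differences of 0.55 and 0.47, and 3 lay under the filter with differences of -0.34, -0.74 and -0.35. The Hey gene hey1.S had 984, 1924, 1578 and 2071 units in heads and 978, 911, 1006 and 1440 units in tails on its tested probe set. Head replicate 1 lay within the tails, and the difference was 0.57 (95% interval -0.03 to 1.16; limma adjusted p = 0.312).

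Groucho proteins are the corepressors that Hes proteins recruit. Of 4 probe sets, 3 were tested, and 0 passed in limma. At an unadjusted p under 0.05, 2 were higher in heads, against 8.84% of all tested probe sets. The 2 were the L and S copies of tle5, which encodes a short Groucho-type protein that lacks much of the full-length form. The L copy had 4629, 5433, 5929 and 3750 units in heads and 3007, 3077, 3529 and 3505 units in tails. The S copy had 3516, 5077, 3920 and 2920 units in heads and 2735, 2508, 1886 and 2204 units in tails. Neither copy had any overlap, and the differences were small, 0.57 (95% interval 0.13 to 1.02) and 0.71 (0.22 to 1.20; limma adjusted p = 0.158 and 0.116). The full-length corepressor gene tle2.L had 2874, 4196, 4182 and 4093 units in heads and 2451, 2863, 3453 and 3694 units in tails, a difference of 0.30. Over all 29 tested members, 3 had every head above every tail and 4 every tail above every head, against 5.95% and 5.71% of all tested probe sets (11.7% together). Of the 4, esr-5.L, hes5.6.L and hes5.10.L had head means under the filter level, so their tails brought them into the test. Over all 57, 9 had every head above every tail and 5 every tail above every head, against 4.99% and 4.33% of all probe sets (9.32% together).

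Of the 4 Hes genes called in the unfiltered fit, 3 lie side by side in the genome. Other Hes members without a call also lie next to or near each other, so closeness is not particular to the called genes. In the RefSeq table of the Xenopus_laevis_v10.1 assembly, esr-5.L, hes7.2.L and hes7.1.L are 3 consecutive protein-coding genes, with 0 others between them. The array's own build is not named, so positions are not given. The first pair, esr-5.L and hes7.2.L, had called probe sets that were higher in tails, and the third gene, hes7.1.L, was higher in heads on both of its probe sets. Another pair of neighbours, hes5.2.L and hes5.1.L, had no call. The other called gene, hes2.L, higher in heads (1.64), stands elsewhere, with 4 protein-coding genes between it and hes5.3.L. From there a row of hes5 genes holds hes5.3.L, hes5.6.L and hes5.10.L, with unfiltered differences of 0.92, -1.14 and -1.22, none of them called. Of 6 genes with both an L and an S probe set, 4 had the same sign of difference on all of their probe sets, the exceptions being dtx3 and hes4.

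**Figure D3:**
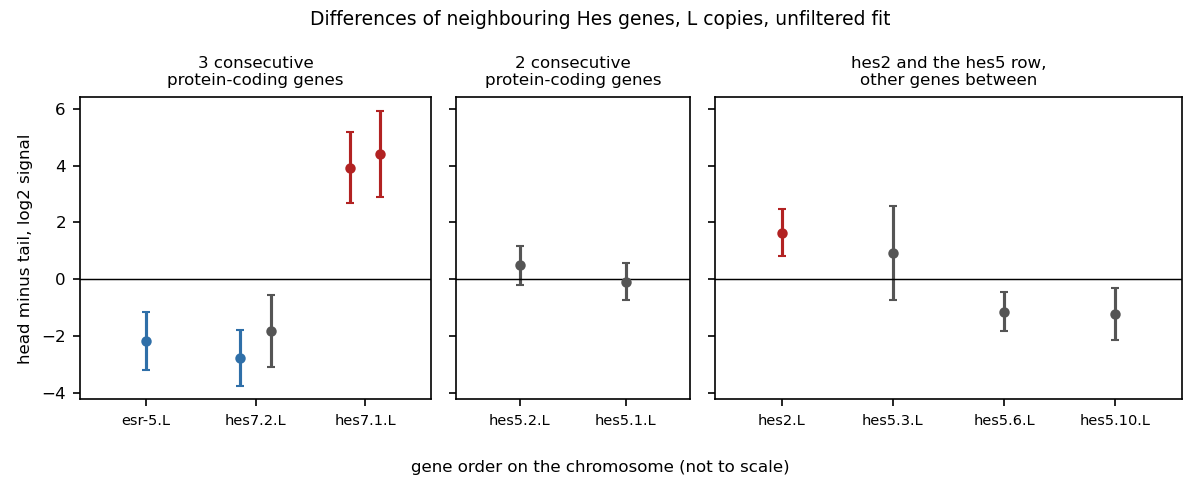
Head-minus-tail difference in log2 signal (unfiltered fit) of Hes genes in their order along the chromosome, L copies, not to scale, with 95% confidence intervals. Red points were called higher in heads, blue points higher in tails and grey points not called; genes with 2 points have 2 probe sets. The 3 adjacent genes of the left panel hold differences from -2.77 to 4.41.

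Lists of genes that surround the pathway were set beside the members. The list of paraxial mesoderm and segmentation genes leaned to the tail: of 9 tested probe sets, 0 passed as higher in heads and 5 as higher in tails, against 2.00% and 2.61% of all tested probe sets. The median difference was -1.56, against 0.06 over all tested probe sets. The list shares the genes myf5, tbx6, tbxt and msgn1 with the tail markers used above to check the fragments. Calls of these genes are therefore not a separate result. The 5 were the muscle regulator gene myf5.L (11.5-fold, limma adjusted p = 5.73e-05), mespa.S (6.59-fold), ripply2.2.S (4.33-fold), tbx6.L (3.96-fold) and the mesoderm gene tbxt.S (2.94-fold), with no overlap of heads and tails on any. In the other direction, aldh1a2.L, the gene of an enzyme that makes retinoic acid, had every head above every tail on both of its probe sets, without a call. Its tested probe set had 1561, 559, 593 and 697 units in heads and 288, 380, 396 and 533 units in tails (difference 0.99, limma adjusted p = 0.141), and that under the filter had an unfiltered difference of 1.14 (limma adjusted p = 0.211). The tbx6.L call was lost in the single-embryo arrays (limma adjusted p = 0.0814). Head mean log2 signals of myf5.L (6.95), tbx6.L (7.35), mespa.S (7.64) and tbxt.S (7.67) lay under the filter level of 7.86. Their tails thus brought these probe sets into the test, and into the count and median above. With no filter there were 8 of 18 higher in tails, against 1.66% of all probe sets. Those under the filter were msgn1.L, a presomitic mesoderm factor gene with 28.6 to 37.3 units in heads and 666 to 1201 units in tails, mespa.L (48.4 to 117 units in heads, 419 to 679 in tails) and meox2.S (19.9 to 118 units in heads, 342 to 662 in tails). The unfiltered differences were -4.87, -2.90 and -3.19 (limma adjusted p = 8.42e-06, 0.00061 and 0.00556). The summed signal of the list's 18 probe sets was 3332 to 5992 units in heads and 9921 to 11629 units in tails, none was at 0, and its part in the tail values of dlc.L, esr-5.L and hes7.2.L was not tested.

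Neural lists leaned to the head. Of 7 tested probe sets of neural progenitor genes, 3 were higher in heads, against 2.00% of all tested probe sets (median difference 1.54). They were sox2.L (4.74-fold, limma adjusted p = 0.00054), zic2.S (2.68-fold, limma adjusted p = 0.0157) and sox11.S (4.47-fold, limma adjusted p = 0.0308). The groups of sox11.S overlapped, the pooled tail (5706 units) lying just over head replicate 1 (5625 units). Over all 13 probe sets of the list, 11 had positive unfiltered differences and 2 negative ones. The 2 were gmnn.L (-0.22) and a second zic2.S probe set, under the filter (-0.91). Of 10 tested probe sets of proneural and neuronal genes, 3 were higher in heads, against the same 2.00% (median 0.82). They were neurod1.L (2.98-fold, limma adjusted p = 0.011), the endocrine and neuronal zinc-finger gene insm1.L (2.07-fold, limma adjusted p = 0.0434) and ebf2.S (2.56-fold, limma adjusted p = 0.0358). The list also holds dlx3, which is not itself a proneural or neuronal gene. Its L and S probe sets were among the 10, uncalled, with differences of 0.40 and 0.05. On the tested probe sets, tail mean log2 signals of sox2.L (6.99), zic2.L (7.60) and sox3.S (6.38) lay under the filter level of 7.86. In the proneural list the same held for ebf2.S (7.28), ebf2.L (7.61) and ebf3.L (7.68). Their heads thus brought these probe sets into the test, and into the counts and medians above. With no filter, 4 of 13 neural progenitor probe sets were called higher in heads (median 1.53), against 1.27% of all probe sets. Of 22 proneural ones, 1 was called, neurod1.L (median 0.47), since insm1.L (limma adjusted p = 0.0689) and ebf2.S (0.0623) were lost. The insm1.L, ebf2.S, zic2.S and sox11.S calls were not firm. The first was lost without each array but head replicate 1 and tail replicate 4 (highest limma adjusted p 0.131, without head replicate 4), and the second without each array but head replicate 1 (highest 0.123, without tail replicate 3). For zic2.S the highest adjusted p was 0.0608 (without tail replicate 3), with losses also without tail replicate 2 and head replicates 2 and 4; sox11.S was lost without head replicates 2, 3 and 4 and tail replicates 2 and 3 (highest 0.0942, without tail replicate 2). The neural progenitor list summed to 11527 to 24955 units in heads and 4219 to 10137 units in tails over 13 probe sets, with no probe set at 0. The proneural list summed to 13384 to 16539 units in heads and 10893 to 11823 units in tails over 22. Within it dlx3.S had 2826 to 3913 units in heads and 1942 to 4063 units in tails. The part of both neural lists in the head values of the Hes genes was not tested.

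The list of skin cell genes gave no call. Of 9 tested probe sets of multiciliated cell and ionocyte genes, 0 passed in limma, and the median difference was -0.15. At an unadjusted p under 0.05 there was 1, against 17.5% of all tested probe sets. That was also the brightest, atp6v1b1.L, a proton pump subunit gene of ionocytes, with 1539 to 2689 units in heads and 2419 to 4299 units in tails (difference -0.62, limma adjusted p = 0.214). Among other Notch pathway genes, 9 of 21 listed were found under a single symbol. Of 10 tested probe sets 1 passed, against 4.62% of all tested probe sets. This was furin.L, the gene of a protease that matures many precursors and cuts the Notch precursor in mammalian cells. On the probe set that passed it had 1481, 1115, 1733 and 1528 units in heads and 2779, 2632, 2488 and 2466 units in tails. Tails lay above heads throughout (difference -0.84, limma adjusted p = 0.0376), but leaving out any 1 array raised the adjusted p to between 0.0531 (tail replicate 1) and 0.128 (head replicate 2). A second tested furin.L probe set had -0.81 (limma adjusted p = 0.165), and both L probe sets under the filter had -0.01 and -0.15. The furin.S probe set, also under the filter, had an unfiltered difference of 0.79 in the other direction (limma adjusted p = 0.578).

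**Figure D4:**
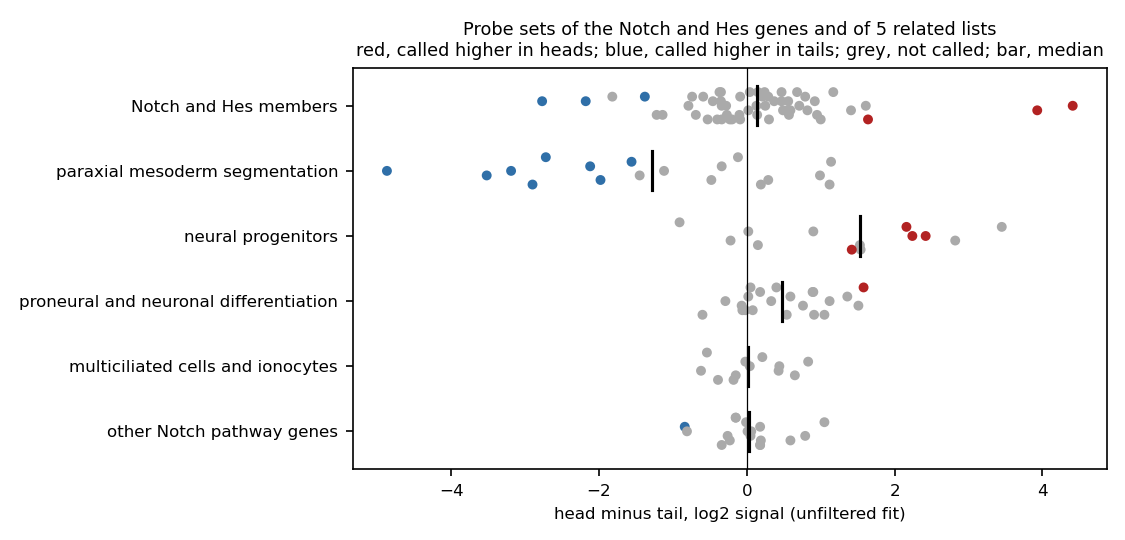
Head-minus-tail difference in log2 signal (unfiltered fit) of the Notch and Hes probe sets and of 5 related gene lists, 1 point per probe set. Red points were called higher in heads, blue points higher in tails and grey points not called, and black bars are medians. Segmentation genes reach -4.87 on the tail side (msgn1.L, also a tail marker). Neural progenitor calls lie on the head side, and the Notch and Hes members have calls on both sides around a median of 0.14.

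Members also varied within the fragments. The median SD of log2 signal over the 29 tested members was 0.35 in heads and 0.42 in tails, against 0.33 and 0.37 over all tested probe sets. In 7 of the 29 the pool lay above all 3 single embryos in both fragments, and in 3 below them in both, whereas 15.9% and 12.3% of all tested probe sets did so. The 7 were notch1.S, hes1.L, hes4.L, a hes4.S probe set, hey1.S, neurl4.S and a mib1.L probe set. The 3 were hes5.6.L, psenen.L and the brightest adam10.S probe set. With 1 pool per fragment, pooling was not tested.

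**Figure D5:**
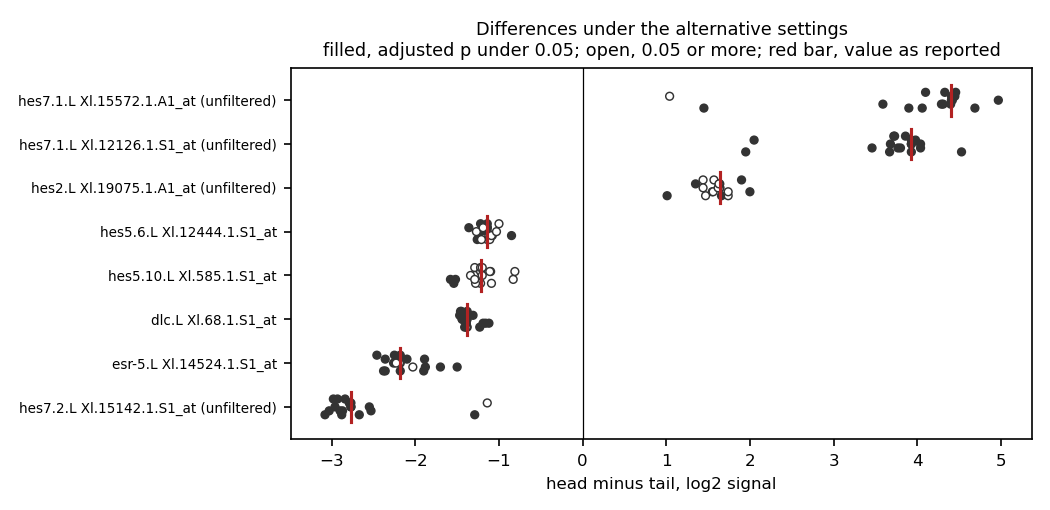
Head-minus-tail difference in log2 signal of 8 Hes and Delta probe sets under each alternative setting. Filled circles had a limma adjusted p under 0.05, open circles 0.05 or more, and red bars mark the values as reported. No circle lies across 0 from its red bar; the hes7.1.L and hes7.2.L circles nearest 0 are the settings that raise low signals or add a pseudocount.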

How the data were processed

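The values used are the signals deposited by the authors: linear intensity values, 1 for each probe set on each array. MAS5 produced them, per the submitters' processing notes; its version is not given in the sources used here. A mean trimmed by 2% at both ends came to 1000 on each of the arrays, which had thus been brought to 1 scale. Per the labels' protocols, RNA went through a 2-cycle amplification. No detection calls were used, so whether a probe set lay above background was not judged.

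Controls (120 of 15611 probe sets) were left out, and signals were raised to at least 1 before log2. Symbols came from the array annotation and were updated through a RefSeq table (9227 of 9304 matched, all 60 members among them). The filter removed probe sets whose mean log2 signal was below the 40th percentile (7.86). The test was limma 3.58.1 in R 4.3.3 (lmFit and trended eBayes, two-sided, no covariate, 8 arrays), and Benjamini-Hochberg adjustment ran over 9295 probe sets. An unfiltered fit served members under the filter. Folds are 2 to the power of the log2 difference. If a group's mean was below the 20th percentile of the signals (93.3 units, a level set here that measures no background), arrays were raised to it and the fold is a lower limit. The steps were tested on simulated data.

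Values on every array were given for members called in either fit and for the 2 brightest tested of each role, and further examples were picked with values in view. The members and lists were chosen with earlier results of these data known. Alternatives were other filters, normalizations, floors, eBayes settings, array weights, a replicate block, single-embryo arrays and leaving out arrays.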

Additional observations from a re-analysis of the deposited data

Results flagged for a closer look

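Among 33 reported probe sets, 5 of 66 groups of 4 arrays held 1 array far from the others, and chance alone marks about 1 group in 20. On dlc.L, head replicate 1 had a log2 signal of 7.38, against 8.23 to 8.31 in the other heads. On hes7.1.L, on the first of its probe sets, tail replicate 2 had 6.45, against 3.91 to 4.25 in the other tails. On hes1.S, tail replicate 1 had 8.53, against 9.55 to 9.66 in the other tails. On tle2.L, head replicate 1 had 11.49, against 12.00 to 12.03 in the other heads. On dtx2.S, tail replicate 3 had 8.03, against 8.23 to 8.25 in the other tails. Of the 5 arrays, 3 were replicate 1 of their fragment.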

How the results depend on the processing

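The members higher in tails numbered 2. They were 4 with array weights, 1 when only single embryos were used, 0 with the filter at the 60th percentile, which left dlc.L and esr-5.L untested, and 1 to 3 when 1 array was left out (1 without head replicate 2, tail replicate 2 or tail replicate 3). Members higher in heads numbered 0, 1 with array weights (tle5.S), 3 with no filter, and 0 in every fit without 1 array. Over all probe sets the count of 429 became 1223 with array weights, 683 without both first replicates (chosen after seeing the data), 273 with the stricter filter, 211 in single-embryo arrays and 208 to 501 when 1 array was left out. It was over 1.5 times lower without head replicate 2 (227), 3 (246) or 4 (277) and without tail replicate 2 (275) or 3 (208). The median difference of the members was 0.15, 0.30 with the stricter filter and 0.05 to 0.23 without 1 array. The stricter filter and the smaller fits hold fewer probe sets or arrays; the cause of the other shifts was not tested.

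Differences near 0, none of them called, changed sign. The first tested mib1.L probe set had 0.11 in single-embryo arrays (-0.24 to 0.13 without 1 array), and the second -0.05 with array weights, -0.05 with median centring and -0.01 with quantile normalization (-0.13 to 0.20). The dimmer tested adam10.S probe set had 0.13 with array weights and 0.13 without both first replicates (-0.25 to 0.05 without 1 array). For hes5.1.L it was 0.05 in single-embryo arrays (-0.25 to 0.16), and for psenen.S -0.04 without both first replicates (0.00 to 0.59). Without 1 array, notch1.S ran from -0.64 to 0.12 and dll1.L from -0.01 to 0.42. Besides jag1.L and neurl1.L above, other uncalled differences shrank by over 1.5 times without 1 array: neurl4.S to 0.25, tle2.L to 0.19 and hes1.S to 0.41 without tail replicate 1, hes5.10.L to -0.81 without head replicate 3, and psenen.L to 0.20 without tail replicate 4. Small differences did so too, with values nearest 0 of -0.08 for dtx2.S, -0.10 for the brightest adam10.S probe set, 0.03 for psen2.S and 0.04 for rfng.L. The hes4.S probe sets fell to 0.27 without tail replicate 1 and 0.35 without head replicate 4 for the one, and to 0.30 without tail replicate 3 for the other.

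Same-numbered heads and tails had correlated deviations of 0.23, 0.03, 0.02 and 0.60 for numbers 1 to 4. Of 8 arrays, 4 correlated best with their own number. These values do not settle whether the numbers pair samples. As the labels do not tie them, the main fit used no pairing. With the replicate block 635 probe sets passed, 0 members higher in heads and 3 in tails. The added member was hes5.6.L (limma adjusted p = 0.0255), which also passed with 7 other settings on all 8 arrays, quantile normalization and median centring among them. In the unfiltered fit the block also ended the call of hes2.L (limma adjusted p = 0.0588). Dim members are limited in that their presence above background was not judged.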
